A study of Mus musculus with 6 samples.

Results

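The 10 genes described here are the cytokine gene Tnf, its receptor genes Tnfrsf1a and Tnfrsf1b, the NF-kB subunit genes Nfkb1, Nfkb2 and Relb, and 4 genes that NF-kB signalling induces or that restrain it, Nfkbia, Tnfaip3, Tnfaip2 and Birc3. They were chosen by symbol, and all 10 were found among the 24411 genes of the count table. RNA sequencing had been done on primary cultures of mouse cortex taken from embryos at day 18. For 3 libraries the cultures had received phosphate-buffered saline (PBS), and for the other 3 preformed fibrils of mouse α-synuclein (PFF, aggregates assembled outside the cell), at 3.45 µM from day 10 in vitro. RNA was taken on day 18 in vitro, 8 days after the addition, and the comparison asks which transcripts differed between fibrils and buffer. The labels name no strain, genotype or sex, and PBS is the only control. Nor do they state that each library had its own culture or litter, so a p-value here is set against the spread between libraries, and that spread may be technical.

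TNF is made as a membrane-bound trimer and released by the protease ADAM17. The receptor encoded by Tnfrsf1a is found on most cell types and carries a death domain, whereas the one encoded by Tnfrsf1b is found mainly on immune, glial and endothelial cells and responds best to membrane-bound TNF. Both receptors lead to NF-kB, a family of dimeric transcription factors held in the cytoplasm by inhibitors, and NF-kB in turn induces genes that switch it off. In the brain microglia are the main source of TNF.

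Library totals ran from 9224974 to 10742383 estimated counts. Replicate 3 stood apart from replicates 1 and 2 in both groups: the chi-square per degree of freedom between 2 libraries of a group was 2.80 and 3.00 for replicates 1 and 2, and 7.58 to 9.69 for pairs with replicate 3. No pair of replicates agreed within sampling noise. Markers of neurons summed to 5327 to 6091 CPM (counts per 1000000, TMM-normalised), astrocyte markers to 3482 to 4678 CPM and oligodendrocyte lineage markers to 1104 to 1481 CPM, so the cultures labelled as neurons held glial transcripts as well. A marker is said to rise or fall if its adjusted p was under 0.05 in edgeR's quasi-likelihood test. Of all genes tested, 3.98% were called higher and 2.60% lower. These marker lists also differed between the groups. Of 10 astrocyte markers 3 fell and none rose. Of 13 oligodendrocyte lineage markers 5 rose (among them Mag, Mobp and Mbp, genes of myelin) and 7 fell (Bcas1, Gpr17, Pdgfra, Sox10, Olig1, Cspg4 and Olig2). Of 12 neuron markers 2 rose, Slc17a6 (log2 fold change 0.56 ± 0.09, ± SE) and Syt1 (0.33 ± 0.09), and none fell. Only Slc17a6 was called with upper-quartile scaling. The 20 microglia and macrophage markers summed to 229 to 359 CPM in PBS and 649 to 796 CPM in PFF. Of these 20, 17 rose and none fell (median log2 fold change over the 18 tested, 1.35). P2ry12, the tested microglia marker that did not rise, was at 1.41, 0.971 and 0.674 CPM in PBS and 1.35, 1.17 and 1.09 CPM in PFF. Its log2 fold change was 0.26 ± 0.36 (± SE, adjusted p = 0.731 in edgeR's test). The microglia genes Tmem119 and Siglech stayed under 1 CPM in every library and were not tested. The 11 lymphocyte and neutrophil markers in the table summed to at most 1.27 CPM, 4 of them at 0 throughout. The 10 endothelial and pericyte markers summed to 14.4 to 17.6 CPM, with Pdgfrb at 7.57 to 10.5 CPM. Of these, 5 were tested and 0 were called, while the endothelial marker Cldn5 and the pericyte marker Kcnj8 were at 0 in all 6 libraries. In such bulk samples, more cells of a type and more RNA per cell cannot be told apart.

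The starts of these genes are shown first, because several of them are known NF-kB targets. RefSeq windows on GRCm38.p6, the assembly that mm10 also denotes, reach from 250 bases before to 50 after a transcript start. They were at hand for 8 of the 10 genes, in 11 windows, and not for Nfkb1 and Relb. Each was searched on both strands for the kappa-B consensus, the 10-base sequence bound by NF-kB dimers, which begins with GGG and ends with CC. It was present in 5 windows of 3 genes, Nfkbia, Tnfaip3 and Nfkb2, against 4.51% of all 32851 windows and 6.48% of the 10558 tested genes with a window. No match lay in the windows of Tnf, Tnfrsf1a, Tnfrsf1b, Tnfaip2 or Birc3, which says only that these letters are not in these stretches. The windows of the 3 genes that rose are Tnf at chr17:35201958-35202257 and Tnfrsf1b at chr4:145246821-145247120, both on the minus strand, and Tnfaip2 at chr12:111442411-111442710 on the plus strand. Those of the 3 genes with a match are Nfkbia at chr12:55492598-55492897 and the outer Tnfaip3 start at chr10:19015361-19015660, both on the minus strand, and the first Nfkb2 start at chr19:46304487-46304786 on the plus strand. Each is written 5′ to 3′ on the gene's strand, with kappa-B matches in capitals and overlapping matches joined.
Tnf: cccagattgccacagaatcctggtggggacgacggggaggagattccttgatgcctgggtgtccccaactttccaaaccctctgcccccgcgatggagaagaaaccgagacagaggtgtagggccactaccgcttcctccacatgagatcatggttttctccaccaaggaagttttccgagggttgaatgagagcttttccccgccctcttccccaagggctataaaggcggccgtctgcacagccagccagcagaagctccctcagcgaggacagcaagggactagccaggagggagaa
Tnfrsf1b: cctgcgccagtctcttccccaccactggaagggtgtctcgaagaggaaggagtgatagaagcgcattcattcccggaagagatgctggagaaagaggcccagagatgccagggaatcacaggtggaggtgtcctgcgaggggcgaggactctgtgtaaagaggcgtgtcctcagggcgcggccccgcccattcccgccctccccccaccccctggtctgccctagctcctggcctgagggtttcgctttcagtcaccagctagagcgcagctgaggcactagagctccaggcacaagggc
Tnfaip2: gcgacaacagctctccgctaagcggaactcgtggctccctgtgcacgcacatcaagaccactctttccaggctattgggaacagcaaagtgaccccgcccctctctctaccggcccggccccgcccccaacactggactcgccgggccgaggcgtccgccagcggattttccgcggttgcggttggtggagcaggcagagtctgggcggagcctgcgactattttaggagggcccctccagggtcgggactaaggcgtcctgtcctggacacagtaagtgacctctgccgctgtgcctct
Nfkbia: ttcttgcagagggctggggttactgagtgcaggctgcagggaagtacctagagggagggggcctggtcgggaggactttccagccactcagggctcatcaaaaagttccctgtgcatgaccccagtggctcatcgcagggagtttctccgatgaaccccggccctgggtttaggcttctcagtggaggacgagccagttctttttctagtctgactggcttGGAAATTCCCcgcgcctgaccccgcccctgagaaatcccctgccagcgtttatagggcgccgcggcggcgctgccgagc
Tnfaip3: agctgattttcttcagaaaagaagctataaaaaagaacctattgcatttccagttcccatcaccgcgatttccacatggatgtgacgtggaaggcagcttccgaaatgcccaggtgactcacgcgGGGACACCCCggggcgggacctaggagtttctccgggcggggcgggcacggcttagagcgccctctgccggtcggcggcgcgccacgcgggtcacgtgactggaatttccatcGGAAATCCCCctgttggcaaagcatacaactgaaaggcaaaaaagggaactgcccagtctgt
Nfkb2: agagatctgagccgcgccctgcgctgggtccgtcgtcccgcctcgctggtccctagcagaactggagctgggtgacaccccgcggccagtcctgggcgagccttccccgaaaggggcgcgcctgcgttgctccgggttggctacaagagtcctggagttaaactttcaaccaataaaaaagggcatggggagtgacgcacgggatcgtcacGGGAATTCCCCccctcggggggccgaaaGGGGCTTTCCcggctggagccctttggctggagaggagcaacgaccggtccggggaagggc

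In the Nfkbia window the match lay 20 to 29 bases before the start, on the opposite strand. Tnfaip3 had 2 matches, from 125 to 116 bases before the start on the gene's strand and from 12 to 3 bases before it on the opposite strand. In the Nfkb2 window overlapping matches covered bases 39 to 29 before the start, and a further one bases 11 to 2 before it. The windows at the other 2 Nfkb2 starts overlap each other and share one of their matches.

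Of the 10 genes, 3 were higher in PFF at an adjusted p under 0.05 in edgeR's quasi-likelihood test, Tnf, Tnfrsf1b and Tnfaip2, and none was lower (0 also at an unadjusted p under 0.05, and 0 in DESeq2 and in limma-voom). Over all 13919 genes tested, 6.58% were called in either direction and 3.98% were called higher. Over all genes, 2.60% were called lower. In 4 of the 10 genes the lowest PFF library exceeded the highest PBS library, against 13.4% of all genes tested, and in 0 of the 10 the reverse held, against 11.6%. For the 10 genes the median log2 fold change was 0.24, beside -0.00056 over all genes. With replicates 1 and 2 only the count of higher genes was also 3, among 8.78% of all genes called higher. It was 1, Tnfrsf1b, in DESeq2, without PBS 2 and without PFF 1, where 3.10%, 2.61% and 2.73% of all genes were called higher.

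**Figure D1:**
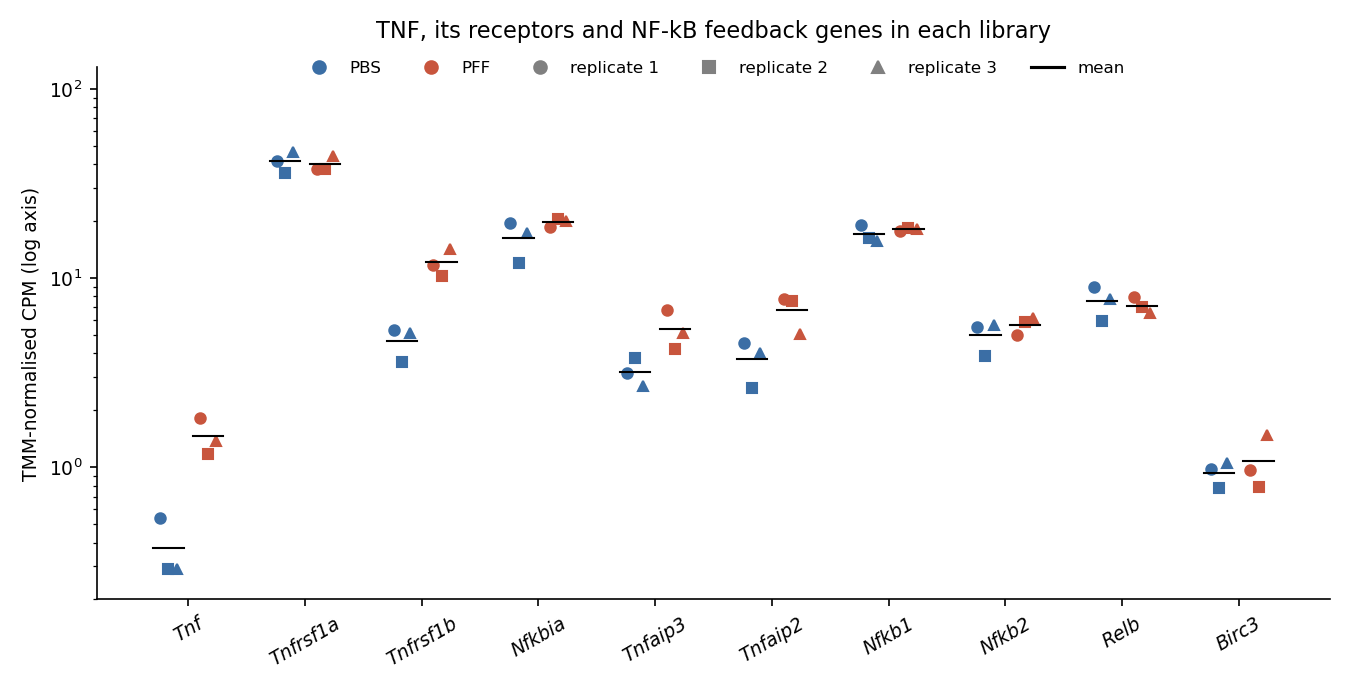
Level of each of the 10 genes in every library, in TMM-normalised CPM on a log axis; colour gives the group, the symbol the replicate, and the black bar the group mean (n = 3). The PFF points of Tnf, Tnfrsf1b, Tnfaip2 and Tnfaip3 lie above all their PBS points, and the points of the other 6 genes overlap.

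Tnf, the ligand, was counted at 5, 3 and 3 reads in PBS 1, 2 and 3 and at 19, 12 and 14 reads in PFF 1, 2 and 3. Every PFF library lay above every PBS library, but the gene was close to the limit of detection in PBS. Its level rose from 0.374 ± 0.145 to 1.46 ± 0.335 CPM (mean ± SD, n = 3 here and below), a log2 fold change of 1.96 ± 0.43 (± SE) with an adjusted p of 0.0134 in edgeR's test. Tnf reached the minimum of the low-count filter, 0.981 CPM, in 0 PBS libraries and in 3 PFF libraries, so it entered the test only through the group in which it was high. With no such filter it had a log2 fold change of 1.95 and an adjusted p of 0.00593. The call ended without PBS 2 (adjusted p = 0.0560), without PFF 1 (0.0656) and in DESeq2 (0.0606), with log2 fold changes of 1.81, 1.76 and 1.98. With replicates 1 and 2 only the change was 1.85. Tnf lies on the minus strand of chromosome 17 from 35199381 to 35202007 in GENCODE vM21 on GRCm38. Like the other 9 genes it is protein-coding, and the values give 1 count per gene, whatever the exon or transcript.

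The 2 receptor genes differed from each other. Tnfrsf1b, on chromosome 4 from 145213463 to 145246870, was counted at 49, 37 and 53 reads in PBS and 122, 105 and 145 reads in PFF. The groups were well separated, with the lowest PFF library at 10.3 CPM and the highest PBS library at 5.31 CPM. The level rose from 4.67 ± 0.936 to 12.1 ± 2.05 CPM (log2 fold change 1.38 ± 0.18, adjusted p = 0.000371 in edgeR's test). The gene remained called in all 17 alternatives, including each in which 1 library was left out, where the fold change ran from 1.22 to 1.49.

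Tnfrsf1a, on chromosome 6 from 125349362 to 125362484, was counted at 386, 371 and 485 reads in PBS and 391, 386 and 450 reads in PFF. The groups overlapped fully. Its mean was 41.5 ± 5.33 CPM in PBS and 40.0 ± 3.90 CPM in PFF, a log2 fold change of -0.05 ± 0.11 (adjusted p = 0.826 in edgeR's test). Within a library, where no scaling between samples enters, Tnfrsf1b reads per 100 Tnfrsf1a reads were 12.7, 9.97 and 10.9 in PBS and 31.2, 27.2 and 32.2 in PFF. The ratio was thus higher in 3 of 3 PFF libraries than in any PBS library, by 1.44 on the log2 scale. With Tnfrsf1a reads this steady, the ratio repeats the rise of Tnfrsf1b and is not separate support for it. Its two-sided exact permutation p was 0.10, the smallest that 3 against 3 libraries allow (0.15 adjusted over the 12 ratios computed here).

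Per 1000 bases of annotated exon, levels can be compared between genes only roughly, because every annotated exon of a gene is counted. A transcript may hold fewer bases, and a gene with many annotated exonic bases is set lower. Nfkb1 has 12061 such bases and Relb 3885. In PBS the order on this scale was Tnfrsf1a (16.0 ± 2.06 CPM per 1000 bases), Nfkbia (10.2 ± 2.42), Relb (1.95 ± 0.398), Nfkb1 (1.41 ± 0.154), Tnfrsf1b (1.22 ± 0.245), Nfkb2 (1.10 ± 0.217), Tnfaip2 (0.750 ± 0.200), Tnfaip3 (0.444 ± 0.0760), Tnf (0.228 ± 0.0886) and Birc3 (0.187 ± 0.0289). Relb and Nfkb1, Nfkb1 and Tnfrsf1b, Tnfrsf1b and Nfkb2, Nfkb2 and Tnfaip2, and Tnf and Birc3 are neighbours that did not differ beyond the sum of their SDs. In PFF Tnfrsf1b followed on the same scale, at 3.18 ± 0.537, behind Tnfrsf1a (15.4 ± 1.50) and Nfkbia (12.2 ± 0.624), and Tnf stood at 0.893 ± 0.205.

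The genes named for their induction by TNF, Tnfaip2 and Tnfaip3, were both higher in every PFF library than in any PBS library, but only the first passed. Tnfaip2 encodes a cytoplasmic protein known for the growth of membrane nanotubes between cells, on chromosome 12 from 111442469 to 111455018. Its reads numbered 42, 27 and 42 in PBS and 80, 77 and 51 in PFF. PFF 3 lay closer to PBS 1 than to the other PFF libraries. The level rose from 3.74 ± 0.999 to 6.76 ± 1.49 CPM (log2 fold change 0.86 ± 0.23, adjusted p = 0.0379 in edgeR's test). The call ended without PBS 1, PBS 2, PBS 3, PFF 1 or PFF 2 (adjusted p from 0.0599 to 0.178) and in DESeq2 (0.0555), and it held without PFF 3, where the fold change was 1.03. With replicates 1 and 2 only, the fold change was 1.11 (adjusted p = 0.00168). Of its exonic bases 6.30% overlap a gene on the opposite strand, whose reads may have been shared.

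Tnfaip3 encodes a ubiquitin-editing enzyme that ends signalling from the TNF receptor complex, on chromosome 10 from 19000910 to 19015657. It was counted at 29, 39 and 28 reads in PBS and 70, 43 and 52 reads in PFF. The groups did not overlap, although PBS 2 at 3.79 CPM and PFF 2 at 4.21 CPM were close. The log2 fold change was 0.74 ± 0.22 with an adjusted p of 0.0671 in edgeR's test, from means of 3.21 ± 0.549 and 5.37 ± 1.28 CPM. It passed with no low-count filter (adjusted p = 0.0374) and with replicate 3 as a batch term (0.0259), and not with replicates 1 and 2 only (0.0830).

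Nfkbia encodes the inhibitor that holds NF-kB in the cytoplasm and is resynthesised soon after NF-kB is activated. On chromosome 12 from 55489410 to 55492647, it was counted at 181, 124 and 181 reads in PBS and 193, 210 and 202 reads in PFF. PBS 1 reached 19.6 CPM, within the PFF range of 18.6 to 20.6 CPM, and PBS 2 was the lowest of the 6. The log2 fold change was 0.27 ± 0.15 (adjusted p = 0.313 in edgeR's test), and without PBS 2 it was 0.09. Tnfaip3 reads per 100 Nfkbia reads were 16.0, 31.5 and 15.5 in PBS and 36.3, 20.5 and 25.7 in PFF. These ratios overlapped, with an exact permutation p of 0.30 (two-sided, 0.327 adjusted over the 12 ratios).

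Birc3 encodes a ubiquitin ligase of the inhibitor of apoptosis family that is recruited to TNF receptor complexes. On chromosome 9 from 7848699 to 7873186, it was counted at 9.1, 8.09 and 11.12 estimated reads in PBS and 10.18, 8.09 and 15.25 in PFF. The groups overlapped at about 1 CPM, and the gene reached the filter minimum in 1 PBS library and 2 PFF libraries. Its log2 fold change was 0.20 ± 0.37 (adjusted p = 0.813 in edgeR's test), so a change of the size seen in Tnfaip2 was not resolved at this depth. Its sign turned without PFF 3 (-0.10).

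The 3 subunit genes differed little between the groups. Nfkb1, which encodes the precursor of a DNA-binding subunit of the canonical pathway, lies on chromosome 3 from 135584655 to 135691547 and was counted at 177, 168 and 163 reads in PBS and 185, 187 and 184 reads in PFF. Its PFF levels, from 17.8 to 18.3 CPM, lay inside the PBS range of 15.7 to 19.2 CPM. Its log2 fold change was 0.09 ± 0.11 (adjusted p = 0.700 in edgeR's test). Nfkb2 encodes the precursor used by the non-canonical pathway, on chromosome 19 from 46304320 to 46312385, and was counted at 51, 40 and 59 reads in PBS and 52, 60 and 62 reads in PFF. Its groups overlapped, with a log2 fold change of 0.18 ± 0.19 (adjusted p = 0.648 in edgeR's test). Of its exonic bases 18.1% overlap genes on the opposite strand, Psd among them, whose reads may have been shared.

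Relb, the partner of the Nfkb2 product, lies on chromosome 7 from 19606217 to 19629438. It was counted at 83, 61 and 81 reads in PBS and 82, 72 and 66 reads in PFF. The log2 fold change was -0.07 ± 0.17 (adjusted p = 0.856 in edgeR's test), and its sign turned without PBS 1 (0.059) and with replicates 1 and 2 only (0.022).

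**Figure D2:**
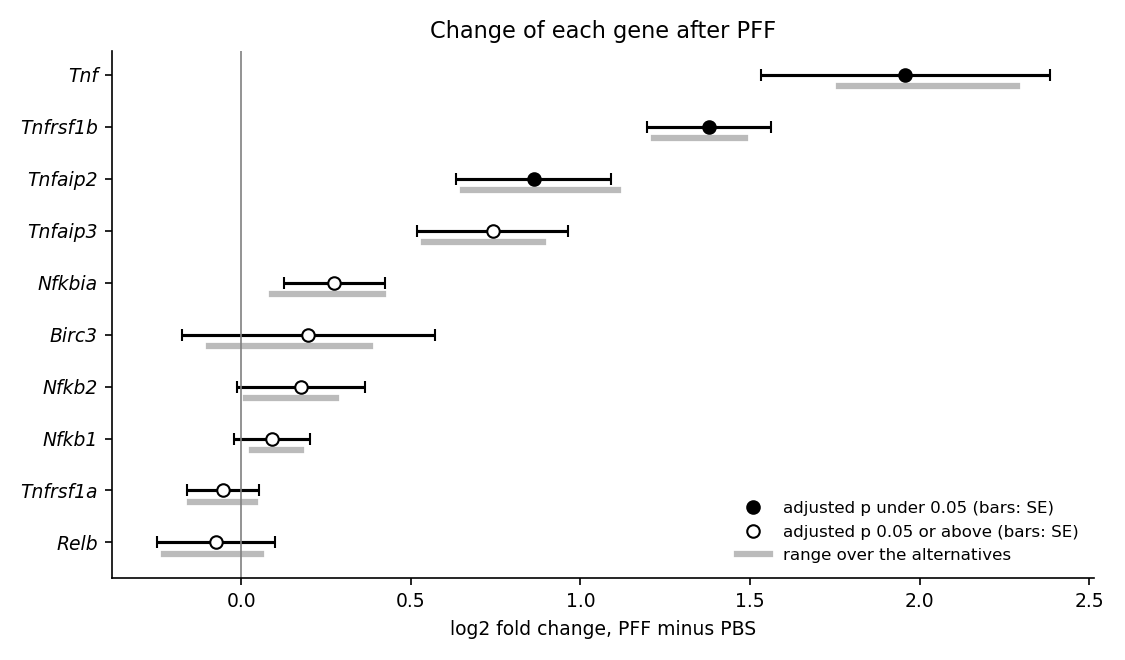
Log2 fold change (PFF minus PBS) of each gene with its SE; filled points have an adjusted p under 0.05, and grey bars give the range over the alternative settings in which the gene was tested. Tnf, Tnfrsf1b and Tnfaip2 have filled points, and the grey bars of Birc3, Tnfrsf1a and Relb cross 0.

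The levels of these genes were then set beside the microglia and macrophage markers, which rose in the same libraries. Reads of the 20 markers together numbered 3316, 2356 and 2948 in PBS and 6737, 6721 and 8051 in PFF. Per 1000 of these marker reads, Tnfrsf1b gave 14.8, 15.7 and 18.0 reads in PBS and 18.1, 15.6 and 18.0 reads in PFF. The groups overlapped on this scale (16.2 ± 1.65 and 17.2 ± 1.41; exact permutation p = 0.40, two-sided, and 0.400 adjusted over the 12 ratios). Tnf gave 1.51, 1.27 and 1.02 reads per 1000 marker reads in PBS and 2.82, 1.79 and 1.74 reads in PFF. Every PFF library was above every PBS library, by 0.72 on the log2 scale, from 3 to 19 reads of Tnf per library. Tnfaip2 (12.8 ± 1.40 and 9.89 ± 3.08) and Tnfaip3 (11.6 ± 4.31 and 7.75 ± 2.29) overlapped between the groups.

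The other 6 genes gave fewer reads per marker read in every PFF library than in any PBS library. The marker reads numbered 2356 to 3316 in PBS and 6721 to 8051 in PFF, so a gene with steady reads must fall on this scale. Tnfrsf1a went from 146 ± 26.0 to 57.1 ± 1.11 reads per 1000 marker reads and Nfkbia from 56.2 ± 4.61 to 28.3 ± 3.09. Tnf and these 6 genes had an exact permutation p of 0.10, the smallest possible, and 0.15 adjusted over the 12 ratios. For the 6 genes that p-value adds nothing to the rise of the marker reads. The ratios were chosen with the rise of the markers known, and beyond them the part of these markers in the changes of the 10 genes was not tested.

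**Figure D3:**
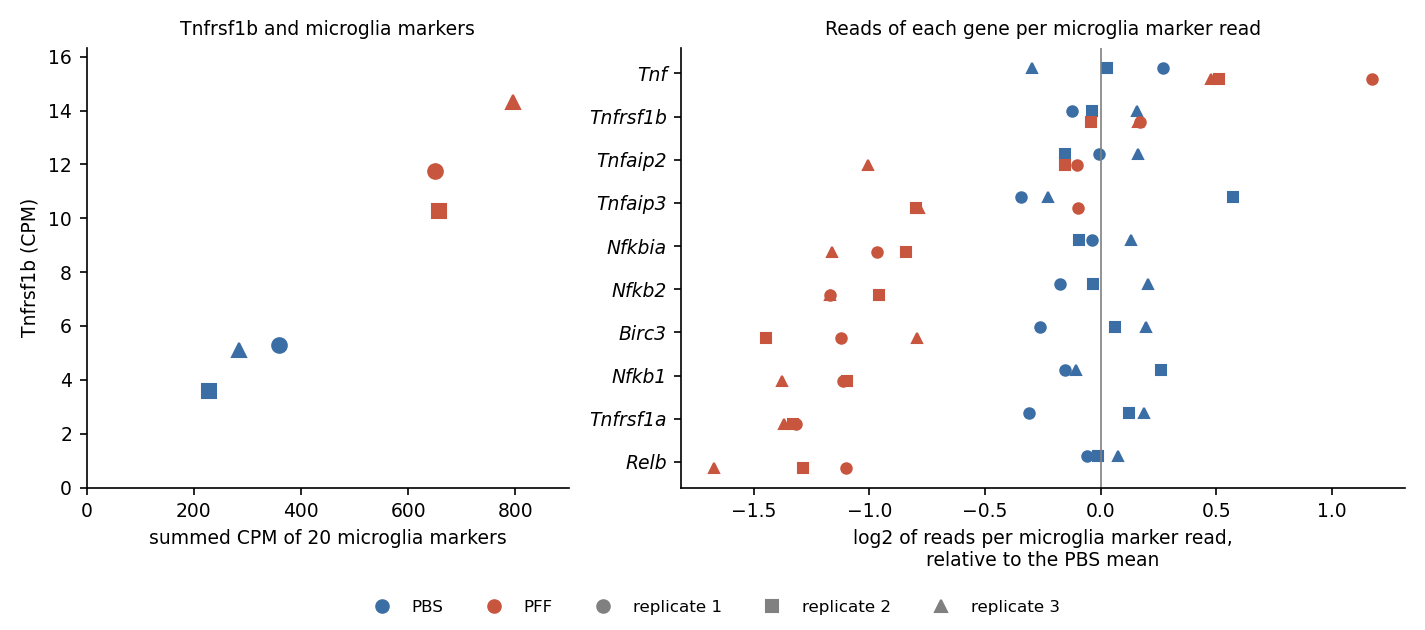
Left, Tnfrsf1b in CPM against the summed CPM of 20 microglia and macrophage markers, 1 point per library, with PBS in blue and PFF in red. Right, reads of each gene per marker read on a log2 scale, relative to the mean of the 3 PBS libraries; on this scale Tnfrsf1b, Tnfaip2 and Tnfaip3 overlap between the groups, Tnf lies higher in PFF and the other 6 genes lie lower.

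The patterns most like that of Tnfrsf1b were sought among the 11523 genes that averaged 5 CPM or more. The likeness was the root mean square difference of log2 CPM, centred on each gene's mean, over the 6 libraries. Among the 3 nearest were the cytokine receptor gene Il10rb (0.093) and the fractalkine receptor gene Cx3cr1 (0.095), of which Cx3cr1 stands in the marker list. Il10rb was at 5.63, 3.20 and 4.62 CPM in PBS and 11.3, 9.79 and 12.4 CPM in PFF. Il10rb was lowest in PBS 2 and highest in PFF 3, as Tnfrsf1b was, which a choice by likeness over these libraries favours.

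Other genes of the pathway were counted in lists chosen by function. Among the adaptors, kinases, ubiquitin enzymes and proteases of TNF receptor signalling, 3 of 30 tested genes rose and none fell (median log2 fold change 0.06), against 3.98% of all genes called higher and 2.60% called lower. Those were Rhbdf2, which brings the TNF-releasing protease to the cell surface (1.39 ± 0.37, adjusted p = 0.0404), the protease gene Adam17 itself (0.33 ± 0.09, 0.0446) and Casp8, the initiator caspase of the death receptor complex (1.05 ± 0.29, 0.0477), in edgeR's test. Adam17 was at 23.7, 23.5 and 22.8 CPM in PBS and 29.2, 28.2 and 30.4 CPM in PFF, so the groups did not overlap although the step was small. Rhbdf2 was at 1.52, 0.485 and 1.25 CPM in PBS and 2.89, 1.86 and 3.76 CPM in PFF. None of the 3 was called in DESeq2 (adjusted p from 0.0604 to 0.152), and Adam17 lost its call without any 1 library (0.0618 to 0.128). Rhbdf2 was called only without PFF 2, and Casp8 only without PBS 1, among the fits with 1 library left out. The list's count was 0 without PBS 2, PBS 3 or PFF 1, 1 with upper-quartile scaling, and 2 with replicates 1 and 2 only, against 8.78% of all genes called higher there, where Rhbdf2 and Ripk1, the receptor-interacting kinase gene, were called.

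Among the other NF-kB subunits and inhibitors, 0 of 6 tested genes passed in edgeR, with 0 at an unadjusted p under 0.05 and 0 in DESeq2 and limma-voom. The smallest p-values were those of the inhibitor genes Nfkbid (0.43 ± 0.22, adjusted p = 0.292) and Nfkbie (-0.40 ± 0.23, adjusted p = 0.326). Rela, the transactivating subunit, was at 31.2, 29.2 and 28.3 CPM in PBS and 30.4, 29.0 and 29.1 CPM in PFF.

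Of 17 other ligands of the TNF superfamily only 3 had enough reads to be tested, and 5 were at 0 in every library. None of the 3 passed in edgeR, DESeq2 or limma-voom, and 1 had an unadjusted p under 0.05. That was Tnfsf12, which encodes the ligand TWEAK (0.55 ± 0.22, adjusted p = 0.164). Next was Tnfsf13 (0.44 ± 0.52, adjusted p = 0.682). Lta and Ltb, the ligand genes beside Tnf, stayed under 1 CPM in every library and were not tested.

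Of 12 other receptors of the superfamily tested, 2 fell and none rose, against 2.60% of all genes called lower. Eda2r, the receptor for an ectodysplasin isoform, was at 15.8, 15.2 and 19.2 CPM in PBS and 7.81, 8.03 and 9.39 CPM in PFF (log2 fold change -0.997 ± 0.139, adjusted p = 0.000529 in edgeR's test). Tnfrsf19, expressed in neural progenitors and glia, was at 40.1, 43.2 and 62.4 CPM in PBS and 26.1, 28.0 and 35.4 CPM in PFF (-0.71 ± 0.17, adjusted p = 0.0277). Tnfrsf19 was not called without PFF 1 (0.0760), without PFF 2 (0.0915) or with no low-count filter (0.105). In the same libraries 3 of 10 astrocyte markers fell, with sums of 3604 to 4678 CPM in PBS and 3482 to 4459 CPM in PFF, and so did 7 of 13 oligodendrocyte lineage markers, which summed to 1104 to 1354 CPM in PBS and 1139 to 1481 CPM in PFF. Among the 7 were Pdgfra (-0.62 ± 0.07) and Gpr17 (-1.22 ± 0.14), found in progenitors. The part of these glial changes in the fall of Tnfrsf19 and Eda2r was not tested. Tnfrsf12a, the receptor for TWEAK, had a log2 fold change of -0.01 ± 0.18, and Ltbr, the lymphotoxin receptor gene, 0.05 ± 0.16. These last 2 were named after their values were seen.

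Among 34 other genes commonly listed as NF-kB targets, 23 were tested, 8 rose and none fell (median log2 fold change 0.53), against 3.98% of all genes called higher and 2.60% called lower. The 3 chemokine genes Ccl2 (2.19 ± 0.45), Ccl3 (1.76 ± 0.28) and Ccl4 (1.55 ± 0.21) were among them, with the complement gene C3 (1.91 ± 0.25), the lipocalin gene Lcn2 (1.34 ± 0.27), Cd83 (0.82 ± 0.22) and the cyclooxygenase gene Ptgs2 (0.72 ± 0.18). Bcl2a1b, an antiapoptotic gene, rose by 1.59 ± 0.18, but near-identical copies of it may share its reads. The interleukin gene Il6 was at 0 in every library. Il1b, named after its values were seen, was lower in every PFF library, at 1.73, 1.94 and 1.73 CPM in PBS and 0.868, 1.08 and 0.989 CPM in PFF, but did not pass (-0.88 ± 0.30, adjusted p = 0.105). Ccl2 was at 1.08, 0.291 and 0.385 CPM in PBS and 1.83, 3.82 and 2.27 CPM in PFF. In PBS 2 and PBS 3 it lay under the low-count filter minimum of 0.981 CPM. Without PBS 1 the log2 fold change was 2.92 for Ccl2 and 2.35 for Ccl3. The count of higher genes was 5 without PFF 2, where 2.22% of all genes were called higher. Leaving out PFF 2 ended the calls of Ccl2 (0.0630), Ptgs2 (0.169) and Cd83 (0.139). Lcn2 was not called without PBS 3 (0.1002) or with no low-count filter (0.0914), nor were C3 (0.0685) and Lcn2 (0.0739) with replicates 1 and 2 only. Ptgs2 was not called without PBS 1 (0.134) or PBS 2 (0.0771), nor Cd83 without PBS 2 (0.142), PBS 3 (0.0712) or PFF 1 (0.0760), or in DESeq2 (0.102). The summed microglia and macrophage markers given above rose in the same libraries, and their part in these rises was not tested.

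**Figure D4:**
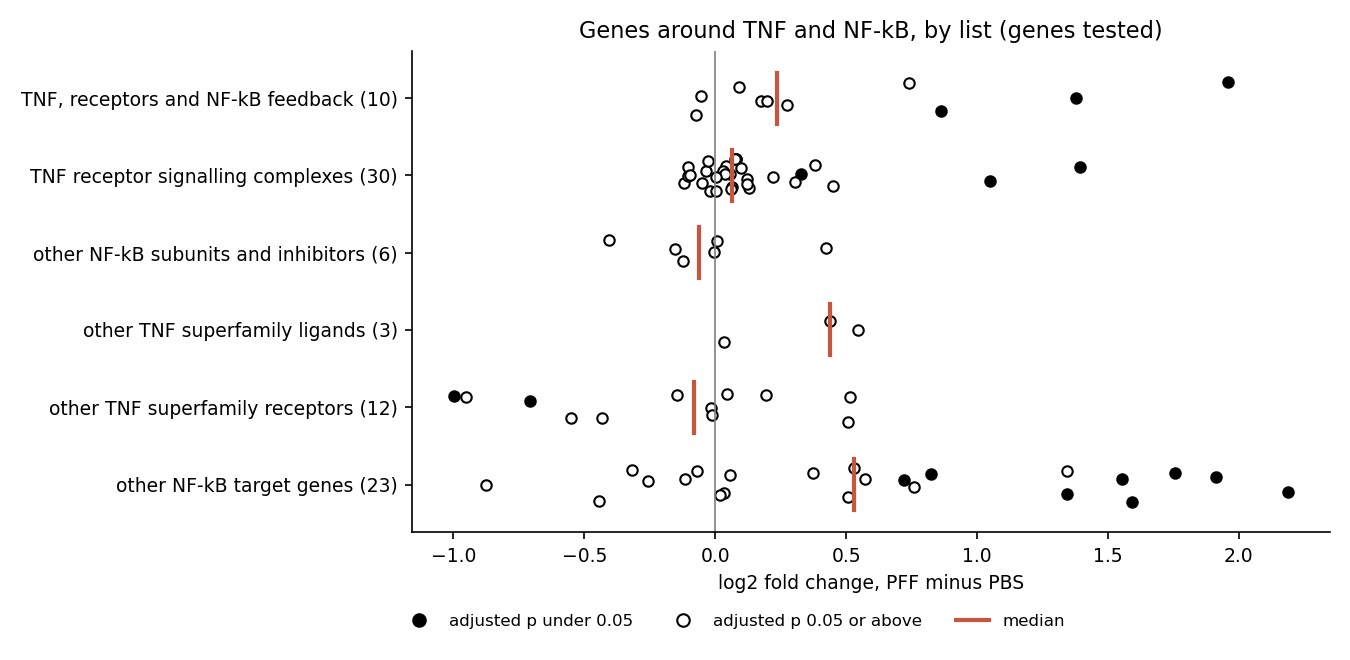
Log2 fold changes (PFF minus PBS) of the tested genes of each list, 1 point per gene, spread vertically for legibility; filled points have an adjusted p under 0.05 and the red bar is the list's median. The list of other NF-kB targets has 8 filled points, all above 0, and the list of other receptors has 2, both below 0.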

How the data were processed

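RNA sequencing libraries were compared, 3 from the PBS group and 3 from the PFF group. The authors deposited unscaled estimated counts for each gene, and 8.69% of these were fractions. The submitters' processing notes name mm10, STAR 2.7.9a, Trim Galore 0.6.6 and DESeq2 1.38.3. Which tool counted the reads, with which strand setting and annotation, is not given in the sources used here.

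Counts were rounded to whole numbers and analysed in R 4.3.3. The filterByExpr rule of edgeR 4.0.16 left 13919 genes, which were TMM-normalised and tested with robust quasi-likelihood F-tests (two-sided, group as the only term, Benjamini-Hochberg adjustment, threshold 0.05). The SE is the log2 fold change divided by the square root of F. Log2 CPM used a prior count of 2. Total counts per library limit the precision of genes with few reads. Exon lengths and coordinates came from GENCODE vM21, as the union of all exons. The steps were tested on simulated data. Alternatives were other scalings, filters and tests (DESeq2 1.42.0, limma-voom with limma 3.58.1), a replicate block and leaving out each library. Replicates 1 and 2 only, and replicate 3 as a batch term, were added after the data were seen.

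The 10 genes, the lists and the ratios were chosen with earlier results of these data known. The naming rule took all 10 genes and, of each other pathway list, every gene passing or else the 2 with the smallest p. Rela, Lta, Ltb and Il6 were named outside it, after their values were seen. Of the 3 genes nearest to Tnfrsf1b in pattern, 1 is not reported here.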

Additional observations from a re-analysis of the deposited data

How the results depend on the processing

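The count of all genes called, 916, was 1997 with a replicate block, 2394 with replicates 1 and 2 only, 2005 with replicate 3 as a batch term, and from 412 to 1858 with 1 library left out. The count of the 10 genes called higher, 3, was 1 in DESeq2 and from 1 to 3 with 1 library left out, and 0 of the 10 were called lower in any alternative. Of 166 values of the 10 genes over 17 alternatives, 150 kept their direction and side of the threshold. Signs turned for Relb with replicates 1 and 2 only (log2 fold change 0.022) and with 1 library left out for Tnfrsf1a (-0.15 to 0.041), Relb (-0.23 to 0.059), Birc3 (-0.10 to 0.38) and, among the other named genes, Tnfsf13 (-0.073 to 0.82). None of these was called under any setting, and the cause was not tested. With at least 50 counts in 3 libraries Tnf, Tnfaip3 and Birc3 were not tested, nor was Birc3 with replicates 1 and 2 only. The labels do not say whether replicate numbers pair the libraries, and the correlations do not settle it. Across genes, deviations of same-numbered libraries correlated at 0.09, 0.11 and 0.20. Differently numbered pairs were all negative, down to -0.21, except PFF 1 with PBS 2 (0.13). With the replicate block 7.49% of all genes and 4 of the 10 genes were called higher, Tnfaip3 being added (adjusted p = 0.0302). Genes at a few reads per library, such as Tnf and Birc3, are limited by depth.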
